A study of Homo sapiens with 12 samples.

Results

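Ephrins and their Eph receptors were examined by RNA sequencing in DU145, a line long established from a human prostate carcinoma. The 10 genes were taken by symbol from 56832 genes in the table: the receptors EPHA1, EPHA2, EPHA4, EPHB2, EPHB3 and EPHB4 and the ligands EFNA1, EFNA4, EFNB1 and EFNB2. All 10 were found. The libraries came from 6 cell lines with 2 biological replicates each, of which replicate 1 was batch 1 and replicate 2 was batch 2. The 3 RAC1-positive lines were parental DU145 and sgNTC clones 1 and 2, both made with the non-targeting guide labelled sgNTC_1. The 3 RAC1 knockout lines were sgRAC1 clone 1, made with guide sgRAC1_1, and sgRAC1 clones 2 and 3, made with guide sgRAC1_2. Each knockout or sgNTC line grew from a single cell after transfection of Cas9 with its guide, so each stands for 1 clone, while the parental line was not cloned. All lines share the DU145 background and grew in RPMI with fetal bovine serum.

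Eph receptors form the largest family of receptor tyrosine kinases, and their ligands, the ephrins, are themselves held on the surface of the neighbouring cell. Ephrin-A ligands sit on a lipid anchor and mostly bind EphA receptors, ephrin-B ligands span the membrane and mostly bind EphB receptors, and contact can signal into both cells. In epithelia and carcinomas the pathway is known for cell repulsion, boundary formation and migration, and small GTPases, RAC1 among them, act downstream of the receptors.

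Values were in TPM, transcript abundance corrected for length and scaled to a sum of 1000000 in each library, so levels may be set side by side between genes but the depth of a library is unknown. RAC1, the targeted gene, was at 36.5 to 59.2 TPM in the 6 knockout libraries and at 149 to 202 TPM in the 6 RAC1-positive libraries. The exact permutation p (two-sided, 3 lines in each genotype) was 0.1, the lowest possible in this design. The library of sgNTC clone 2 replicate 1 stood apart, with 13608 genes above 0 against 20470 to 25156 elsewhere. Of 7 epithelial markers 6 were expressed, with KRT8, KRT18, KRT19 and KRT7 at mean levels of 79.5 to 220 TPM, while KRT5 was listed at 0. KLK3 and TMPRSS2, which mark luminal prostate cells, were listed at 0 in every library. Of 4 leukocyte markers PTPRC and CD3E were at 0, and the list summed to 0.726 to 4.23 TPM in knockout and 0 to 1.08 TPM in RAC1-positive libraries. Most of that sum was CD14, at 1.79 ± 1.28 against 0.440 ± 0.238 TPM (SD, n = 3 lines per genotype, limma adjusted p = 0.367), with the 3 knockout line means above the others. The 4 endothelial markers summed to 0.118 to 0.791 against 0.101 to 0.779 TPM, with VWF at 0 and PECAM1 at up to 0.791 TPM. The 0.779 TPM was KDR in sgNTC clone 2 replicate 1. PECAM1, too low to be tested, was at 0.349 ± 0.261 against 0.0812 ± 0.0348 TPM (SD, n = 3 lines per genotype), with the 3 knockout line means above the others. The 6 stromal markers summed to 0.0841 to 0.429 against 0.0429 to 0.751 TPM, with LUM at 0 and COL3A1 above 0 in every library. The 4 neural markers summed to 9.11 to 12.5 against 4.92 to 10.5 TPM. Only 1 of the 4 was tested, with the 3 knockout line means above the others, and it did not pass (limma adjusted p = 0.241). The epithelial list summed to 440 to 846 TPM in knockout and 325 to 866 TPM in RAC1-positive libraries, and none of its 6 tested genes passed between genotypes. With each clone set singly against the RAC1-positive lines, CDH1 alone of these passed, in sgRAC1 clones 1 and 3. Its log2(TPM + 1) difference was 1.84, 1.01 and 1.71 in clones 1, 2 and 3 (limma adjusted p = 0.0298, 0.369 and 0.0250). The error in those contrasts is the spread between libraries of a line. EPCAM and CDH1 were at 43.8 ± 6.72 and 13.5 ± 4.13 TPM with RAC1 knocked out, against 24.2 ± 2.10 and 3.98 ± 1.51 TPM without (SD, n = 3 lines per genotype, limma adjusted p = 0.150 and 0.156). KRT18 stood the other way, at 129 ± 54.3 against 236 ± 124 TPM (limma adjusted p = 0.487), and the lines of the genotypes overlapped for KRT8, KRT18, KRT19 and KRT7. In bulk RNA, fewer cells with a transcript and less transcript per cell cannot be told apart.

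One receptor and 3 A-type ligands carried most of the family in these cells. EPHA2, a receptor common in epithelial tumours, held 71.5% to 89.6% of the summed TPM of all Eph receptors across the 12 libraries. EPHB4, best known as the receptor of ephrin-B2 in blood vessels, was next with 7.69% to 21.0%. Of the summed ephrins, EFNA5, a ligand outside the 10 genes, held 37.2% to 64.0%, EFNA1 21.1% to 45.7% and EFNA4 6.15% to 30.7%. Summed over 22 family genes, ephrin-A ligands were at 63.7 to 96.8 TPM per library and ephrin-B ligands at 0.615 to 2.74 TPM. EphA receptors were at 13.4 to 21.1 TPM and EphB receptors at 2.15 to 4.38 TPM. The A class was thus above the B class in every library, for ligands and for receptors.

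**Figure D1:**
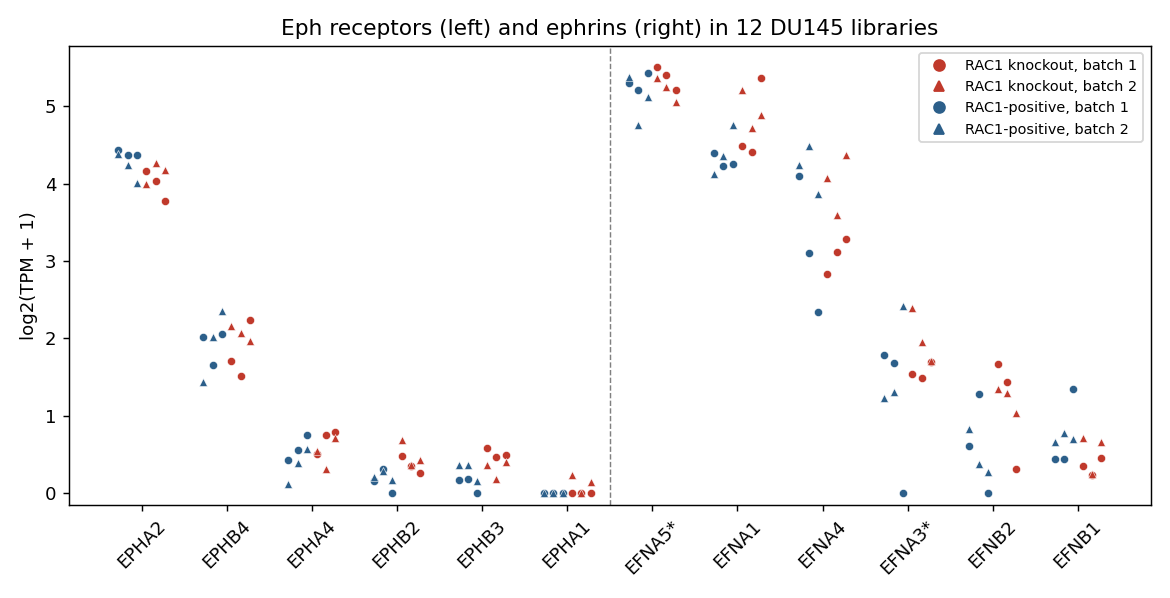
Level of 6 Eph receptors and 6 ephrins on the log2(TPM + 1) scale, 1 symbol per library, with the 6 lines side by side in the order parental, sgNTC clones 1 and 2, sgRAC1 clones 1, 2 and 3. Red marks RAC1 knockout and blue RAC1-positive lines, circles batch 1 and triangles batch 2, and an asterisk marks the genes EFNA5 and EFNA3, which are outside the 10. EPHA2, EFNA5, EFNA1 and EFNA4 have the highest means.

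Of the 10 genes, 5 reached a mean of 1 TPM in at least one genotype and were tested: EPHA2, EPHB4, EFNA1, EFNA4 and EFNB2, the last through its knockout mean only. The other 5, EPHA1, EPHA4, EPHB2, EPHB3 and EFNB1, were below that level. Positions are from GENCODE release 29 on GRCh38. EPHA2 (chromosome 1, 16124337 to 16156087, minus strand) is overlapped on the opposite strand by AL451042.2. EFNA4 (chromosome 1, 155063731 to 155069553) and EFNA1 (chromosome 1, 155127460 to 155134857) lie on the plus strand in 1 cluster, with EFNA3 (155078872 to 155087538) between them. EFNA4 and EFNA3 are both overlapped on their own strand by AL691442.1. EPHB4 (chromosome 7, 100802565 to 100827521) overlaps SLC12A9 on the opposite strand, and EFNB2 (chromosome 13, 106489731 to 106535662) overlaps AL138689.1 and AL138689.2. The sources used here do not give whether counting used the strand, and reads of overlapping genes may be shared.

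The sequence before the RefSeq start of EPHA2 and of EFNA4 is shown, since these are a receptor and a ligand that the results turn on. It is written 5′ to 3′ on the strand of the gene, from RefSeq on GRCh38.p14, and stops before the first base of the GENCODE gene. Capitals mark the GC box GGGCGG, searched on both strands.
EPHA2 (chr1:16156088-16156319, minus strand): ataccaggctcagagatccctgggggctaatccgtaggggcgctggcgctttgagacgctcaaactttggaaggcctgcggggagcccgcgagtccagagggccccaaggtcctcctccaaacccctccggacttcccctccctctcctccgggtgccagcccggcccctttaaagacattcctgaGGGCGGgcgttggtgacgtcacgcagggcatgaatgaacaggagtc
EFNA4 (chr1:155063490-155063730, plus strand): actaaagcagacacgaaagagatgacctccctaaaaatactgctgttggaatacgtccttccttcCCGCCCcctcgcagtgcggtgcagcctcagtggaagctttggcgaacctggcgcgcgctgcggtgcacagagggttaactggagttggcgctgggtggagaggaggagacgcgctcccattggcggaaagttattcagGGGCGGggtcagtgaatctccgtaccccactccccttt
In full windows of 250 bases the start region of EFNA1 held 5 GC boxes, that of EFNA4 held 2 and that of EPHA2 held 1. A GC box was in 42.6% of 35116 windows of the same length. GC content was 73.2% for EFNA1, 63.2% for EPHA2 and 58.4% for EFNA4, against a median of 58% over all windows. The window of EFNA1 lies wholly inside the span of the GENCODE gene and is not printed. None of the 3 windows held a TATA box (TATAAA, in 10.7% of windows), an AP-1 site (TGANTCA, 6.57%) or an E-box (CACGTG, 6.34%). EFNA4 held 1 CCAAT box (CCAAT, 32%) and EPHA2 held 1 TEAD site (GGAATG, 11.9%). All motifs were searched on both strands. These are matches of letters only, and no binding was measured.

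The receptors were compared between genotypes first. EPHA2 was at 12.7, 16.2 and 18.3 TPM (lowest, median and highest) in the 6 knockout libraries and at 15.1, 19.7 and 20.6 TPM in the 6 RAC1-positive libraries. The lowest RAC1-positive library was sgNTC clone 2 replicate 2, and without it every knockout library but sgRAC1 clone 2 replicate 2 lay below the others. By line, EPHA2 followed the order parental (20.3 TPM), sgNTC clone 1 (18.8), sgNTC clone 2 (17.4), sgRAC1 clone 2 (16.8), sgRAC1 clone 1 (15.9) and sgRAC1 clone 3 (14.9). All knockout lines were thus below all RAC1-positive lines, at 15.9 ± 0.95 against 18.8 ± 1.44 TPM (SD, n = 3 lines). The log2(TPM + 1) difference was -0.23 (SE 0.12, 95% interval -0.52 to 0.06) and did not pass (limma adjusted p = 0.460). It was -0.40 in batch 1 (limma adjusted p = 0.644), where the genotypes did not overlap, and -0.06 in batch 2 (limma adjusted p = 0.873), where they did. The change between batches was 0.33 (limma adjusted p = 0.904), and 0% of all genes passed that test.

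EPHB4 did not separate the genotypes. It was at 1.87, 3.06 and 3.72 TPM in the knockout libraries and at 1.71, 3.04 and 4.14 TPM in the RAC1-positive libraries, so the ranges overlapped almost wholly. The log2(TPM + 1) difference was 0.02 (SE 0.21, 95% interval -0.47 to 0.50, limma adjusted p = 0.979), an interval that spans ratios of TPM + 1 from 0.724 to 1.42.

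The remaining receptors were near the limit of detection. EPHB2, an EphB receptor known from gut epithelium, was at 0.196 to 0.615 TPM in the knockout libraries and at 0 to 0.241 TPM in the RAC1-positive libraries. EPHB3, which acts with EPHB2 in crypt sorting, was at 0.134 to 0.503 against 0 to 0.285 TPM. The 0 was in both cases sgNTC clone 2 replicate 1, the library that stood apart, and the next lowest RAC1-positive value was 0.117 TPM for EPHB2 and 0.115 TPM for EPHB3. For both genes each of the 3 knockout line means was above the 3 RAC1-positive line means, while the libraries overlapped. With no level filter the log2(TPM + 1) differences were 0.24 for EPHB2 (SE 0.12, limma adjusted p = 0.612) and 0.21 for EPHB3 (SE 0.11, limma adjusted p = 0.633). The authors' deposited table gives EPHB2 a mean of 5.39 normalized counts per library. EPHA4, a receptor that binds ligands of both classes, was at 0.0855 to 0.731 TPM over all libraries, with the genotypes overlapping. EPHA1 was listed at 0 in 10 of 12 libraries and reached 0.181 TPM in sgRAC1 clone 1 replicate 2.

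Of the ligands, EFNA1 showed the clearest separation among the 5 genes tested. Its product, ephrin-A1, is the best known ligand of EPHA2 and was first described as a gene induced by tumour necrosis factor. EFNA1 was at 20.3, 26.9 and 40.1 TPM (lowest, median and highest) in the knockout libraries and at 16.5, 18.9 and 26.1 TPM in the RAC1-positive libraries. In batch 1 the 3 knockout libraries (20.3 to 40.1 TPM) lay above the 3 RAC1-positive libraries (17.8 to 20.0 TPM). In batch 2 sgNTC clone 2 (26.1 TPM) was above sgRAC1 clone 2 (25.4 TPM). In every other pair of batch 2 the knockout library was above the RAC1-positive library.

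By line, EFNA1 followed the order sgRAC1 clone 3 (34.3 TPM), sgRAC1 clone 1 (28.8), sgRAC1 clone 2 (22.8), sgNTC clone 2 (22.1), sgNTC clone 1 (18.7) and parental (18.3). The mean was 28.6 ± 5.74 TPM for knockout and 19.7 ± 2.11 TPM for RAC1-positive lines (SD, n = 3 lines each), a ratio of 1.45. The log2(TPM + 1) difference was 0.49 (SE 0.17, 95% interval 0.10 to 0.88). It had the smallest p of the 5 (0.0210, limma) but did not pass over 17367 genes (limma adjusted p = 0.295). Within batches 1 and 2 it was 0.46 and 0.52 (limma adjusted p = 0.710 and 0.346). The part of the marker levels given above (EPCAM, CDH1, KRT18 and CD14 among them) in the EFNA1 difference was not tested.

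EFNA4 differed more between batches than between genotypes. In batch 1 it was at 16.2 TPM in the parental line and at 4.05 to 8.74 TPM in the other 5. In batch 2 it was at 11.1 to 21.5 TPM. Every line was higher in batch 2, at 1.11 times its batch 1 level in the parental line, 1.43 in sgRAC1 clone 2, 2.26 in sgRAC1 clone 3, 2.59 in sgRAC1 clone 1, 2.81 in sgNTC clone 1 and 3.37 in sgNTC clone 2. The mean was 8.41 ± 4.14 TPM in batch 1 and 16.6 ± 3.88 TPM in batch 2 (SD, n = 6 libraries each). The paired log2(TPM + 1) difference of EFNA4 was 0.98 (SE 0.20) and did not pass over all genes (limma adjusted p = 0.199). All 6 lines were higher in batch 2 for 4.34% of genes tested. Of the 5 genes, 1 (EFNA4) had this pattern and 0 passed, while 0.0115% of all genes did (limma, paired by line).

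Between genotypes EFNA4 averaged 11.5 ± 2.47 TPM over the knockout lines, against 13.5 ± 4.20 TPM over the others (SD, n = 3 lines per genotype). The log2(TPM + 1) difference of -0.14 (SE 0.28, 95% interval -0.81 to 0.52) was smaller than the spread of the lines (limma adjusted p = 0.852). It was -0.10 in batch 1 and -0.19 in batch 2. The other ligands and receptors tested had smaller paired batch differences, of 0.16 for EFNA1, -0.01 for EPHA2, 0.13 for EPHB4 and -0.03 for EFNB2 (limma adjusted p = 0.808 to 0.979).

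**Figure D2:**
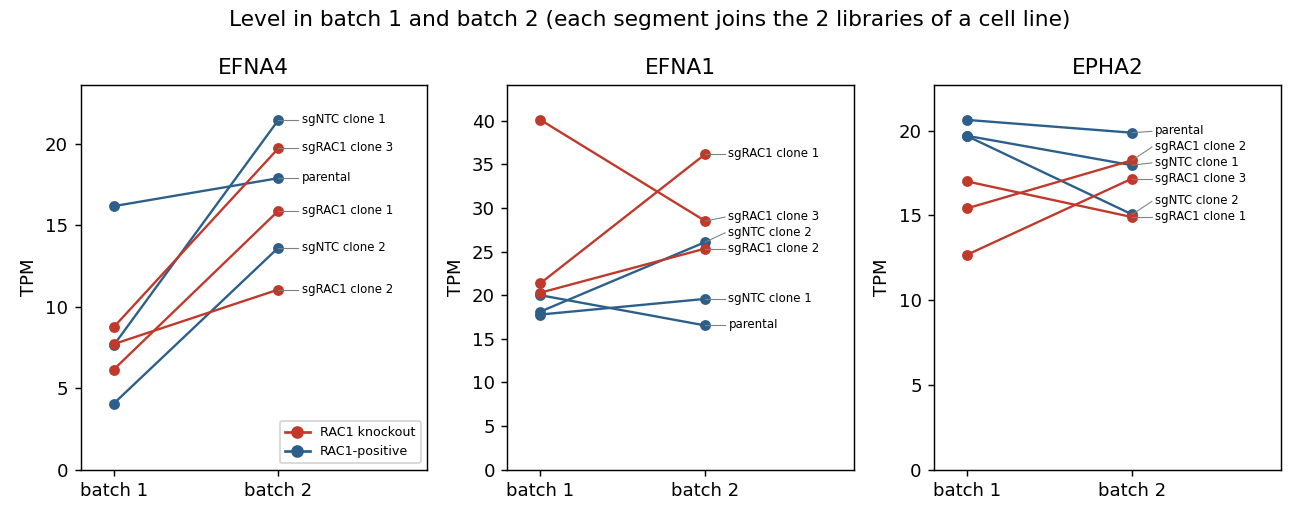
Level in TPM in batch 1 and batch 2 for EFNA4, EFNA1 and EPHA2, where each segment joins the 2 libraries of a cell line and red marks RAC1 knockout. EFNA4 goes up in all 6 lines, from a mean of 8.41 to 16.6 TPM, while EFNA1 and EPHA2 go up in some lines and down in others.

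EFNB2, the ligand of EPHB4, was low in all lines and uneven among the knockout clones. The knockout libraries were at 0.244, 1.49 and 2.18 TPM (lowest, median and highest) and the RAC1-positive libraries at 0 (sgNTC clone 2 replicate 1), 0.412 and 1.44 TPM. The line means of sgRAC1 clone 1 (1.86 TPM) and sgRAC1 clone 2 (1.58 TPM) were above all others. The mean of sgRAC1 clone 3 was 0.647 TPM, which lay within the RAC1-positive range of 0.104 to 0.870 TPM. The log2(TPM + 1) difference of the genotypes was 0.62 (SE 0.33, limma adjusted p = 0.473), and 1.44 with a pseudocount of 0.1 (limma adjusted p = 0.511). The authors' deposited table gives EFNB2 a mean of 8.25 normalized counts per library. EFNB1, the other B-type ligand among the 10, was at 0.173 to 0.645 TPM in the knockout libraries and at 0.352 to 1.54 TPM in the RAC1-positive libraries. The 1.54 TPM was sgNTC clone 2 replicate 1, and the next RAC1-positive value was 0.714 TPM. Line means of the genotypes overlapped. With no level filter the log2(TPM + 1) difference of EFNB1 was -0.29 (SE 0.20, limma adjusted p = 0.724).

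**Figure D3:**
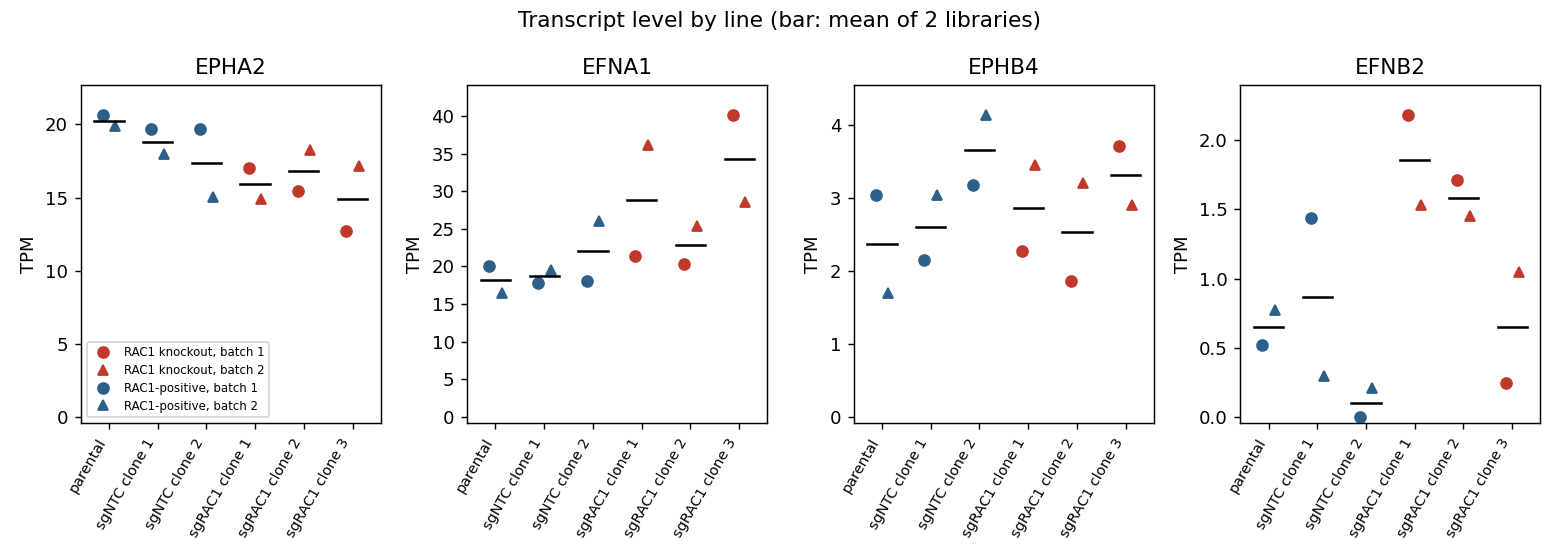
Level in TPM of EPHA2, EFNA1, EPHB4 and EFNB2 by line, with circles for batch 1, triangles for batch 2 and a bar at the mean of the 2 libraries. The knockout lines (red) have lower EPHA2 and higher EFNA1 means than every RAC1-positive line (blue), EPHB4 overlaps, and sgRAC1 clone 3 is within the RAC1-positive range for EFNB2.

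Across the 10 genes no difference between genotypes passed. The count was 0 of 5 tested at a limma adjusted p of 0.05, against 0.00576% of all genes, and 1 of 5 (EFNA1, higher) at an unadjusted p of 0.05, against 13% of all genes (7.53% higher and 5.46% lower). The 3 knockout lines were apart from the 3 RAC1-positive lines for EFNA1 and EPHA2, 2 of 5, against 20.5% of all genes (12% higher and 8.52% lower). The median log2(TPM + 1) difference of the 5 was 0.02, as for all 17367 genes (0.02). In a limma fit of the 12 libraries that treats the line as a random effect the adjusted p of EFNA1 was 0.176, and it was 0.199 with the replicate block added. The correlation within lines estimated in these fits was -0.03 and 0.02. Libraries of a line therefore counted almost as independent replicates of the genotype.

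Single clones were set against the mean of the 3 RAC1-positive lines in a fit of all 12 libraries, whose error is the spread between 2 libraries within a line. These contrasts share their control libraries. For sgRAC1 clones 1, 2 and 3 the log2(TPM + 1) difference of EFNA1 was 0.49, 0.21 and 0.77 (SE 0.24 each, limma adjusted p = 0.609, 0.928 and 0.231). For EPHA2 it was -0.22, -0.15 and -0.32 in the same order (SE 0.17 each, limma adjusted p = 0.798, 0.928 and 0.500). EFNB2 stood at 0.94, 0.80 and 0.11 (SE 0.35 each, limma adjusted p from 0.457 to 0.928).

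None of the 5 genes passed in these contrasts, where 0.484% (clone 1), 0.196% (clone 2) and 1.08% (clone 3) of all genes did. Of 5 further contrasts among lines of one genotype, sgRAC1 clone 1 against clones 2 and 3 called 0.0864% of all genes, sgNTC clone 2 against parental 0.0115% and the others 0%, and again none of the 5 genes passed. A limma F test over the 6 lines called 0 of the 5 and 0.322% of all genes. Of 75 comparisons of 1 line with another none passed, against 0.149% of all such comparisons over all genes, and the lowest limma adjusted p was 0.317. No neighbours in the orders given above therefore differed by this test.

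**Figure D4:**
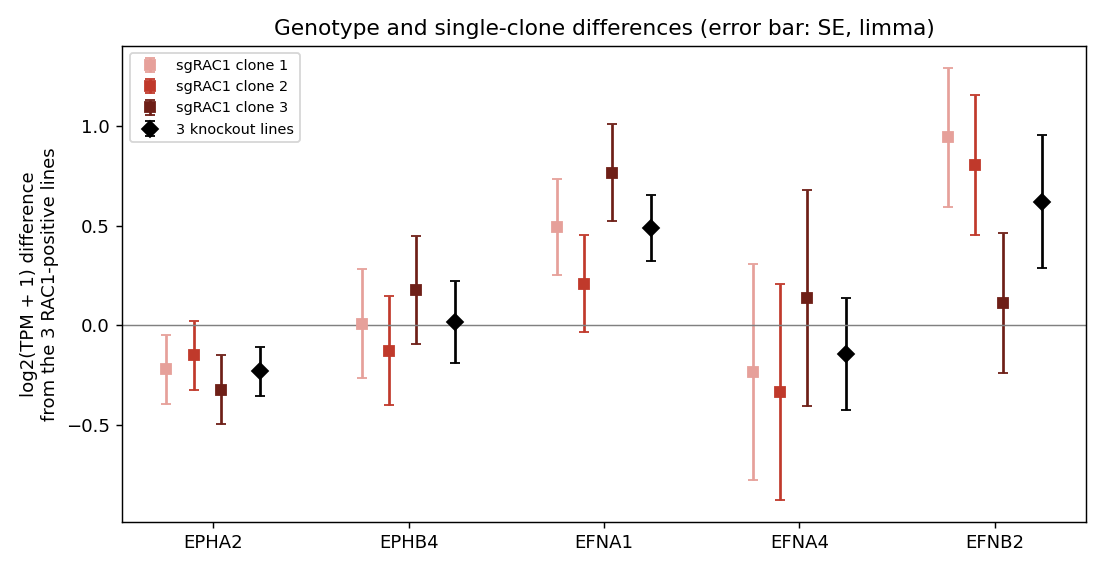
Difference from the mean of the 3 RAC1-positive lines on the log2(TPM + 1) scale for the 5 genes tested, as squares for each sgRAC1 clone and diamonds for the 3 knockout lines, with SE from limma as error bars. EFNA1 and EFNB2 are above 0 and EPHA2 below 0 in all 3 clones, and EFNA4 has the longest bars for single clones.

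The receptor EPHA2 and its ligand EFNA1 ran in opposite directions from library to library. The ratio of EFNA1 to EPHA2 averaged 1.87 ± 0.53 over knockout and 1.08 ± 0.22 over RAC1-positive lines (SD, n = 3 lines each). By library it ran from 0.832 in parental replicate 2 to 3.16 in sgRAC1 clone 3 replicate 1. Over the 12 libraries, which share lines and batches, Pearson's r of log2(TPM + 1) was -0.82 and Spearman's rank correlation -0.82. It was -0.87 in batch 1 and -0.82 in batch 2 (6 libraries each). Among the 6 RAC1-positive libraries it was -0.86 and among the 6 knockout libraries -0.66. Without the 2 libraries farthest from the median of EPHA2 it was -0.59. These values describe the libraries and carry no test. With the other A-type ligands tested EPHA2 had r = 0.03 (EFNA4), 0.05 (EFNA5) and -0.45 (EFNA3). In batch 1 these were 0.05, 0.15 and -0.29, and in batch 2 they were 0.21, -0.04 and -0.89. EFNA1 also ran with EPHB4, at r = 0.66 over the 12 libraries, 0.91 among knockout and 0.86 among RAC1-positive libraries. EPHB4 and its ligand EFNB2 had r = -0.54, with -0.88 in batch 1 and -0.14 in batch 2.

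**Figure D5:**
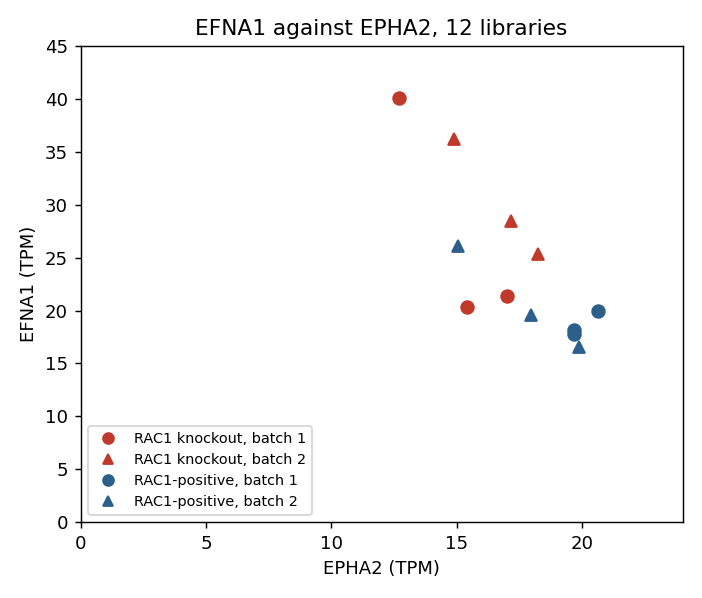
EFNA1 against EPHA2, both in TPM on linear axes from 0, 1 symbol per library, with red for RAC1 knockout, blue for RAC1-positive, circles for batch 1 and triangles for batch 2. The library with the lowest EPHA2 (12.7 TPM) has the highest EFNA1 (40.1 TPM), and 5 of 6 RAC1-positive libraries lie at 18.0 to 20.6 TPM of EPHA2 with 16.5 to 20.0 TPM of EFNA1.

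The ligands summed to 83.5 ± 6.39 TPM over knockout and 73.0 ± 5.18 TPM over RAC1-positive lines (3 lines each, SD). The summed receptors were at 20.2 ± 0.46 and 22.5 ± 0.75 TPM. The ratio of ephrins to receptors was 4.17 ± 0.38 over knockout and 3.27 ± 0.21 over RAC1-positive lines. These sums are descriptions of TPM, and protein was not measured.

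Genes whose pattern over the 12 libraries was most like that of the abundant members were sought among 9413 other genes at a mean of at least 5 TPM, by Pearson's r of log2(TPM + 1). For EFNA1 the 3 highest included NMRK1 (r = 0.91) and DNASE2 (0.91). For EPHA2 they included DPH6 (r = 0.90) and RUVBL1 (0.89). For EFNA4 they were CALR (r = 0.95), ALG3 (0.94) and AGPAT6 (0.94). No p is attached, since the libraries share lines and batches and each set is the top 3 of 9413.

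Other genes of the pathway were taken from fixed lists. Of the 12 other Eph receptors and ephrins 2 were tested and 0 passed. EFNA5, a ligand of several EphA receptors, averaged 38.6 ± 4.20 TPM over knockout and 36.2 ± 4.51 TPM over RAC1-positive lines (SD, n = 3 lines each, limma adjusted p = 0.781). EFNA3 was at 2.56 ± 0.46 against 1.97 ± 0.19 TPM (limma adjusted p = 0.452). EPHA5, EPHA7, EPHA8 and EPHB6 were listed at 0 in every library.

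Of 32 adaptors, kinases, phosphatases and exchange factors 20 were tested and 0 passed, with 3 higher and 1 lower in the knockout lines at an unadjusted limma p of 0.05, against 7.53% and 5.46% of all genes. SDCBP, which encodes syntenin, a scaffold that binds the tail of ephrin-B, was at 531 ± 54.0 against 344 ± 37.7 TPM (limma adjusted p = 0.143). ANKS1A, an adaptor of Eph receptors, was at 3.22 ± 0.76 against 1.67 ± 0.35 TPM (limma adjusted p = 0.301). The median log2 difference of the 20 was 0.06. Of 10 proteases tied to shedding 9 were tested and 0 passed, with 2 higher and 0 lower at an unadjusted limma p of 0.05 (7.53% and 5.46% of all genes) and a median of 0.20. One of these was ADAM9, a membrane metalloprotease, at 384 ± 28.3 against 308 ± 56.7 TPM (limma adjusted p = 0.373). ADAM10, the main sheddase of ephrins, was at 49.8 ± 2.16 against 42.9 ± 15.9 TPM (limma adjusted p = 0.615).

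The authors' deposited table holds a comparison for 7 of the 10 genes. By the authors' deposited table none of the 7 passed at 0.05, where 9.74% of 15140 genes did. EFNA1 had a log2 fold change of 0.51 (SE 0.20) and an adjusted p of 0.0805, as the authors' deposited table lists it. EFNB2 had 1.22 (SE 0.53, adjusted p = 0.133), EPHB2 1.07 (SE 0.50, adjusted p = 0.174) and EPHA2 -0.26 (SE 0.13, adjusted p = 0.204), again by the authors' deposited table. The mean of normalized counts in the authors' deposited table was 124 for EPHA2, 106 for EFNA1, 32.1 for EPHB4 and 27.4 for EFNA4. Those values come from the same libraries and are not independent of the fits above.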

How the data were processed

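The 12 libraries were made from total RNA by SMARTScribe reverse transcription, amplification and tagmentation, per the labels' protocols. Per the submitters' processing notes, bcl2fastq, STAR 2.6.1d, DESeq2 and the build GRCh38 were used. How reads were counted, whether by strand and on which annotation is not stated in what was available here. The authors deposited 1 table with a TPM value per gene and library. For 15140 genes it also holds the authors' DESeq2 comparison, per the file headers. Its columns, all deposited by the authors, are the mean normalized count (a signal), the log2 fold change, its standard error, the Wald score and p-values. The unit TPM was read from the values, which sum to 1000000 per library.

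Here limma 3.58.1 in R 4.3.3 was fitted to log2(TPM + 1), with trend and Benjamini-Hochberg adjustment at 0.05 over the 17367 genes that averaged 1 TPM or more in one genotype or both. Genotypes were compared on means per line (3 against 3). Lines were compared in a fit of the 12 libraries with 1 mean per line, and batches on the difference within each line. A difference on this scale understates that of low genes. Labels give biological replicates without saying whether cultures were separate, so p-values within lines measure the spread between these libraries. The tests were checked on simulated data drawn with the spread between libraries of a line. Those data held no spread between clones, so the check does not cover that part of the genotype test. The replicate number marks a shared batch per the labels. Between lines, the batch deviations correlated at -0.13 to 0.30 (15 pairs, median 0.03, 2 over 0.1), so a fit with the replicate block was run beside the genotype result. No 2 of the 66 pairs of libraries were identical. The 10 genes, the gene lists and the tests were chosen with earlier results of these data known. From each list, genes past the test or the 2 with the smallest p were named, plus ADAM10, EPHA5, EPHA7, EPHA8, EPHB6 and the markers, which were named after their values were seen. Likeness used the 3 highest r per gene. A few genes that these rules name are not reported here. Promoters were matched by symbol for 10 of 10 genes, and 2 were printed, chosen after the values were seen. Alternatives covered the unit of replication, scaling, level filter, pseudocount, batches and each line or library left out.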

Additional observations from a re-analysis of the deposited data

Results flagged for a closer look

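Among the 10 genes, 19 sets of 6 libraries of one genotype were checked for a library far from the others. The cutoff marks about 1 in 20 sets of independent, normally distributed values. These libraries share lines and batches and some genes are near 0, so the rate by chance is not known here. In 2 sets a library stood out, both from sgNTC clone 2. EFNA1 was at 26.1 TPM in sgNTC clone 2 replicate 2, against 20.0 TPM in the next RAC1-positive library. EFNB1 was at 1.54 TPM in sgNTC clone 2 replicate 1, the library with the fewest genes above 0, against 0.714 TPM in the next. EPHB3 was higher in batch 2 in all 3 RAC1-positive lines and lower in all 3 knockout lines. The batch step in the knockout lines minus that in the RAC1-positive lines was -0.38 on the log2(TPM + 1) scale. EPHB3 was below the level filter, and this difference was not tested.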

How the results depend on the processing

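The count of 0 of the 5 genes held between genotypes under all 28 alternatives run, over the 6 lines under 16, between batches under 9 and between single lines with the replicate block. The count over all genes, 1 (RAC1) in the comparison reported, was 369 with 12 libraries and the line as a random block, 320 with the replicate block added, 33 in batch 2 alone, 3 with a filter of 5 TPM and 2 with a pseudocount of 5. It was 0 in batch 1 alone, with either scaling, with no level filter or with a pseudocount of 0.1, and 0 to 21 when a line or library was left out (21 without sgNTC clone 2 replicate 1). The fits that called 369 and 320 genes took the libraries of a line as almost independent. Over the 6 lines the count of 56 genes became 10 to 892 (892 without sgNTC clone 2 replicate 2). The difference of EFNA1 kept its sign under 28 alternatives (0.35 to 0.63, limma adjusted p 0.176 to 0.710), as did EPHA2 (-0.40 to -0.06) and, under 27, EFNB2 (0.20 to 1.44). That of EPHB4 turned to -0.089 in batch 1 alone and ran from -0.081 to 0.16 with a line or library left out. That of EFNA4 ran from -0.44 to 0.11 with one left out, and was above 0 without the parental line, sgNTC clone 1 replicate 2, sgNTC clone 2 replicate 2, sgRAC1 clone 1 replicate 1 or sgRAC1 clone 3 replicate 1. The batch step of EFNA4 ran from 0.72 to 1.14 (limma adjusted p 0.179 to 0.569). RAC1 kept 23.8% to 28.7% of its level, and its difference (-2.04 to -1.79) missed the threshold under 19 of 28 alternatives. Library depth is unknown, so no counting interval is given for any gene. EFNB2 had no value under the filter of 5 TPM, nor had EPHB4.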
